A study of Mus musculus with 6 samples.

Results

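The 10 CC chemokine genes Ccl2, Ccl3, Ccl4, Ccl6, Ccl7, Ccl8, Ccl9, Ccl20, Ccl25 and Ccl28 were followed in mouse colon tumours, out of 18194 genes named on the array. Members were taken by symbol: every probe set that the platform annotation assigns to 1 of these genes and to no other, which gave 15 of 45101 probe sets. Each probe set combines several short probes against 1 transcript. The study hybridised total RNA of colon cancer tumours to 6 Affymetrix arrays. Of these, 3 (control) came from wild type mice and 3 (transgenic) from mice with a human IL8 transgene, and both groups had the strain label CBA/C57BL/6. IL8 is a human chemokine that draws neutrophils. The sources used here do not give the promoter of the transgene, the age of the animals, how the tumours arose or whether an array held 1 tumour or a pool. The p-values therefore cover the spread among these 6 samples and nothing beyond it.

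CC chemokines are small secreted proteins with a pair of adjacent cysteines near the amino end. They bind G protein-coupled receptors of the CCR family on leukocytes and guide these cells into tissue. Ccl2, Ccl7 and Ccl8 belong to the monocyte chemoattractants, Ccl3 and Ccl4 to the macrophage inflammatory proteins, and Ccl6 and Ccl9 are rodent ligands of Ccr1. In the gut, Ccl20, Ccl25 and Ccl28 are made by epithelial cells and attract cells that carry Ccr6, Ccr9 and Ccr10.

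The labels give all 6 animals as male. Xist, the RNA of the inactive X chromosome, was nevertheless at 12.27 to 12.89 on the transgenic arrays and at 2.33 to 2.64 on the control arrays, and the Y-linked gene Eif2s3y was at 2.39 to 2.71 and at 9.99 to 10.22. The transgenic arrays thus went against their sex label, and genotype and this split cannot be told apart in any difference below. Transgenic array 2 stood apart by squamous epithelium genes. The summed level of 8 such markers was 14.44 there and 7.48 to 9.29 elsewhere (log2 of the summed linear values), with Krtdap at 12.31 against at most 2.62. All 8 intestinal epithelium genes were tested, and their summed level was 15.50 to 15.74 in control and 15.68 to 15.73 in transgenic tumours. This list is of the intestine as a whole, so it cannot check the colon label.

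Promoter sequence was read for the 3 members that ranged most widely over the arrays among those with an entry, to show what stands before each start site. RefSeq windows (build GRCm38.p6) were found for 7 of the 10 members, and Ccl2, Ccl4 and Ccl7 are named only. The 150 bases before the annotated start follow, 5′ to 3′ on the gene's own strand, with motif matches in capitals. The windows are chr11:82115035-82115184 (plus strand) for Ccl8, chr1:83116616-83116765 (plus strand) for Ccl20 and chr13:119623669-119623818 (plus strand) for Ccl28.
Ccl8: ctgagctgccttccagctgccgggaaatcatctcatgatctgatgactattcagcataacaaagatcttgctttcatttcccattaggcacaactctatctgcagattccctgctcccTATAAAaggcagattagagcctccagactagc
Ccl20: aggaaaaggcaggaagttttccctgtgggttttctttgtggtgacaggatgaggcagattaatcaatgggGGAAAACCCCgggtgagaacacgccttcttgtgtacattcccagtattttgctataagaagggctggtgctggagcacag
Ccl28: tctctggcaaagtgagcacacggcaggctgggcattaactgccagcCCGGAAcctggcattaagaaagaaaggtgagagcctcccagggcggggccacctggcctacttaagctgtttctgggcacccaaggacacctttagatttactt

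The motifs searched on both strands were the TATA box (TATAAA), the NF-kB consensus, AP-1 (TGANTCA), STAT (TTCNNNGAA), the interferon-stimulated response element and the ETS core (CCGGAA). Ccl8 had a TATA box that begins 32 bases before the start, Ccl20 an NF-kB match that begins 80 bases before it and Ccl28 an ETS core 104 bases before it. In the windows not printed, Ccl9 held overlapping TATA box matches on both strands, an AP-1 match and an NF-kB match, and 1 of the 2 Ccl25 windows held a TATA box, while its other window and those of Ccl3 and Ccl6 held none of the 6 motifs. Among 32851 windows of the same length, 7.57% held the TATA box, 4.60% NF-kB, 4.24% AP-1, 4.09% STAT, 1.59% the interferon element and 9.23% the ETS core. A match describes these letters only.

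Values are log2 expression values, so that 1 unit is a doubling. A probe set was tested where it reached 4 on at least 3 arrays, which removed low values near background. For the CC chemokines 10 of the 15 probe sets passed, standing for 8 genes. Ccl3 and Ccl4 did not pass. No CC chemokine probe set had an adjusted p under 0.05 with limma, 0 of 10, where 0.0570% of the 19310 probe sets tested did. At an unadjusted limma p under 0.05 there was 1 of 10, Ccl7, against 5.50% of all tested. The same probe set was also the 1 of 10 whose transgenic arrays all lay below the control arrays, against 6.31% of all tested, and 0 of 10 lay wholly above, against 4.61%. These shares rest on 10 probe sets, of which 4 read the genes Ccl6 and Ccl9 in pairs. By the brightest probe set of each gene, 4 members were higher and 4 lower in transgenic tumours, with a median difference of 0.05 against -0.02 over all probe sets tested.

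**Figure D1:**
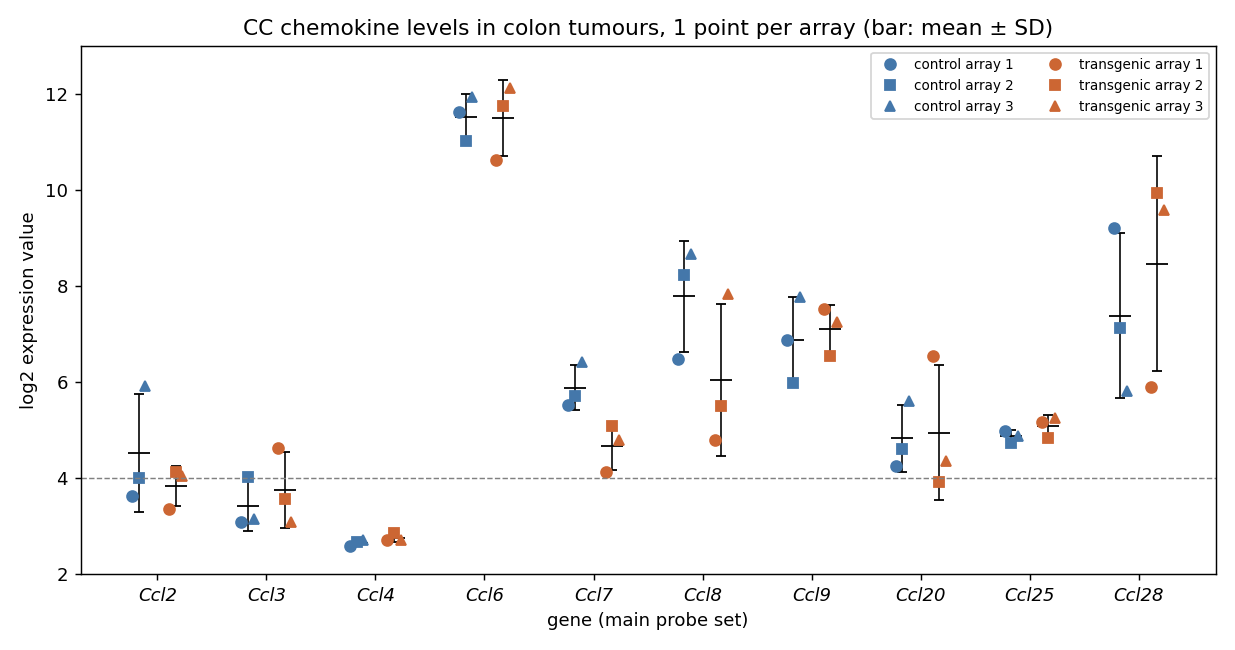
Log2 expression value (y axis) of the main probe set of each CC chemokine (x axis) on every array, blue for control and orange for transgenic, with marker shape for the array number, bars for mean ± SD (n = 3) and a dashed line at the filter level of 4. Ccl7 is the 1 tested gene whose groups are apart, and Ccl4 lies under 4 on all 6 arrays.

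The monocyte chemoattractants were lower on average in the transgenic tumours, all 3 of 3, and none passed the test. Ccl7, which acts on Ccr2 of monocytes, was at 5.52, 5.72 and 6.41 on control arrays 1 to 3 and at 4.13, 5.08 and 4.79 on transgenic arrays 1 to 3. Every transgenic array lay below every control array, and the narrowest gap was between transgenic array 2 and control array 1. The group levels were 5.88 ± 0.47 and 4.66 ± 0.49 (SD, n = 3 each), a difference of -1.22 ± 0.34 (SE) or 2.33-fold lower. Its 95% interval for this gene alone ran from -2.03 to -0.41, but the limma adjusted p over all probe sets was 0.806.

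Ccl8, a monocyte chemoattractant that signals through Ccr8 in mice, had the largest difference of the 8 tested members. It was at 6.48, 8.22 and 8.66 on the control arrays and at 4.80, 5.51 and 7.83 on the transgenic arrays. Transgenic arrays 1 and 2 were below all controls, while array 3 was above control array 1, so that the groups overlapped. The difference of -1.74 ± 0.91 (SE), with a 95% interval of -3.94 to 0.47, did not pass (limma adjusted p 0.806). Dropping transgenic array 3 gave -2.63 and dropping transgenic array 1 gave -1.12, and neither value passed (limma adjusted p 0.335 and 0.716).

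Ccl2, the chief Ccr2 ligand, was close to the filter level. It was at 3.64, 4.01 and 5.93 on the control arrays and at 3.35, 4.12 and 4.04 on the transgenic arrays. Control array 3 stood above all other arrays, and the transgenic arrays lay within 0.77 of each other. The difference was -0.69 ± 0.61 (SE; limma adjusted p 0.825), and without control array 3 it was 0.013.

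Among protein-coding genes, these 3 lie next to each other with Ccl11 and Ccl12 on chromosome 11 (assembly GRCm38.p6). Ccl12, a further mouse ligand of Ccr2, was at 4.05, 4.59 and 6.51 on the control arrays and at 2.62, 3.24 and 3.90 on the transgenic arrays, which were all under 4. Ccl12 was tested only through its control arrays, which were at or above 4, so the gap between its groups is partly set by the filter and no fold is given (limma adjusted p 0.806). On control array 3 Ccl2, Ccl7, Ccl8 and Ccl12 were each at their highest, and on transgenic array 1 each was at its lowest.

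**Figure D2:**
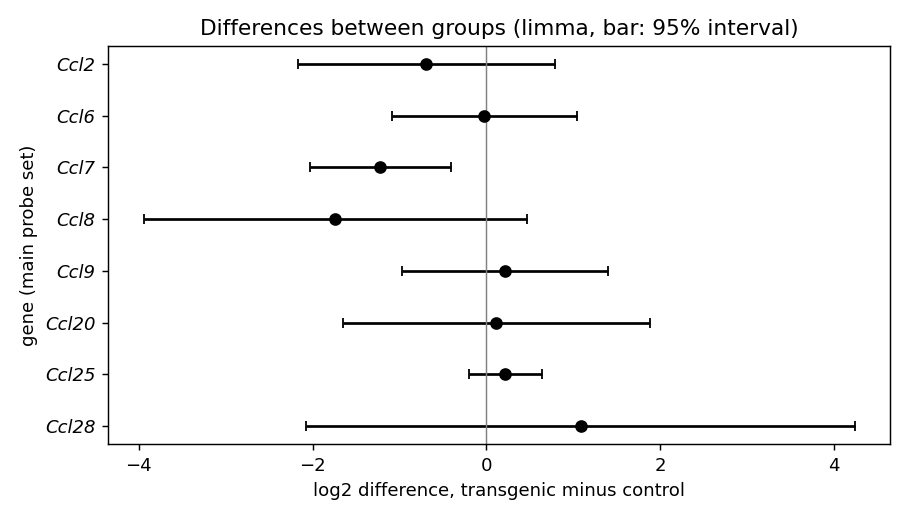
Difference between transgenic and control tumours (x axis, log2) for the main probe set of the 8 tested CC chemokines (y axis), with bars for the 95% interval of the limma fit before any adjustment over probe sets. The interval of Ccl7 alone lies off 0, and those of Ccl8 and Ccl28 are the widest.

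Tested monocyte, macrophage and dendritic cell markers were mostly lower on average beside these ligands, as were fibroblast markers. The 3 tested genes of the neutrophil list were higher on average. The summed level of 10 monocyte and macrophage markers was 13.23 to 13.55 in control and 11.83 to 13.06 in transgenic tumours, with 9 of 10 lower, against 53.2% of all probe sets tested, at a median difference of -1.02, and none under 4 on every array. By limma 0 of the 10 passed after adjustment and 6 had an unadjusted p under 0.05, against 5.50% of all tested. Their sum, in which the brightest genes weigh most, was lowest on transgenic array 2. So was their unweighted mean deviation from the control mean, at -1.01, -1.71 and -0.54 on transgenic arrays 1, 2 and 3. Csf1r, Cd68, Fcgr1, Lyz2 and Msr1 were each lowest on transgenic array 2. Adgre1, Mrc1, Aif1 and Cx3cr1 were lowest on transgenic array 1, as were Ccl7 and Ccl8, while Cd14 was highest there, at 11.43. The 7 dendritic cell markers had a summed level of 11.57 to 12.09 in control tumours and of 9.33, 10.64 and 11.38 on transgenic arrays 1, 2 and 3, the same order as Ccl8, with Flt3, Xcr1, Zbtb46 and Cd209a under 4 on all 6 arrays. This sum was set by the bright genes H2-Aa and H2-Ab1, with H2-Aa at 8.96, 10.31 and 10.95 on those arrays. It therefore reads those genes and not dendritic cells as such. Of the 7, 3 were tested and 0 passed after adjustment, and Itgax was tested only through its control arrays. The 7 fibroblast markers, all tested and all 7 lower on average, against 53.2% of all probe sets tested, had a median difference of -0.64. Their summed level was 14.22 to 14.44 in control tumours and 13.21, 14.11 and 13.96 on transgenic arrays 1, 2 and 3, with none under 4 on every array. Their mean deviation from the control mean was -1.46, -0.03 and -0.49 on those arrays, and Col1a1 and Lum were highest on transgenic array 2. By limma 0 of the 7 passed after adjustment and 1 had an unadjusted p under 0.05, against 5.50% of all tested. The summed level of 9 neutrophil markers was 11.28 to 11.88 in control and 12.55, 13.01 and 12.04 on transgenic arrays 1, 2 and 3, with Cxcr2, Camp, Mmp8 and Elane under 4 on all 6 arrays. The 3 tested, S100a8, S100a9 and Ltf, were the brightest and so set this sum, and 0 of the 3 passed after adjustment. All 3 were highest on transgenic array 2, the array with squamous epithelium genes. The part of squamous epithelium in their values was not tested. Csf3r, which was not tested, went the other way, at 3.17 to 3.32 on the transgenic and 3.40 to 4.46 on the control arrays. The part of any of these lists in the Ccl2, Ccl7 and Ccl8 values was not tested. In bulk tumour RNA, fewer cells of a type and less RNA per cell cannot be told apart.

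Ccl3 and Ccl4, which attract monocytes and T cells, were near background. Ccl4 ranged from 2.59 to 2.71 in control and from 2.70 to 2.85 in transgenic tumours, under 4 on every array. Ccl3 was at 3.10, 4.02 and 3.14 on the control arrays and at 4.62, 3.56 and 3.09 on the transgenic arrays. It reached 4 on 2 arrays, control array 2 and transgenic array 1, and was not tested.

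Ccl6 and Ccl9, neighbouring protein-coding genes whose products act on Ccr1 of myeloid cells, were well above the filter on every array and showed no difference that passed. Ccl6 was at 11.63, 11.01 and 11.94 on the control arrays and at 10.62, 11.76 and 12.13 on the transgenic arrays. The transgenic group held both the lowest and the highest array. The difference was -0.02 ± 0.44 (SE), with a 95% interval of -1.09 to 1.04 (limma adjusted p 0.990). A second Ccl6 probe set, whose name marks it as reading more than 1 transcript, gave 0.28 ± 0.44 (SE; limma adjusted p 0.898), the other sign.

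Ccl9 was at 6.88, 5.99 and 7.78 on the control arrays and at 7.52, 6.54 and 7.24 on the transgenic arrays, so that all transgenic arrays fell inside the control range. The difference was 0.22 ± 0.49 (SE), with a 95% interval of -0.97 to 1.40 (limma adjusted p 0.929). Its other probe set ran 1.19 to 1.86 below the first on each array and gave a difference of 0.01. The receptor gene Ccr1 was at 5.63, 6.14 and 6.83 on the control arrays and at 6.03, 4.66 and 6.03 on the transgenic arrays, a difference of -0.63 ± 0.48 (SE; limma adjusted p 0.810).

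**Figure D3:**
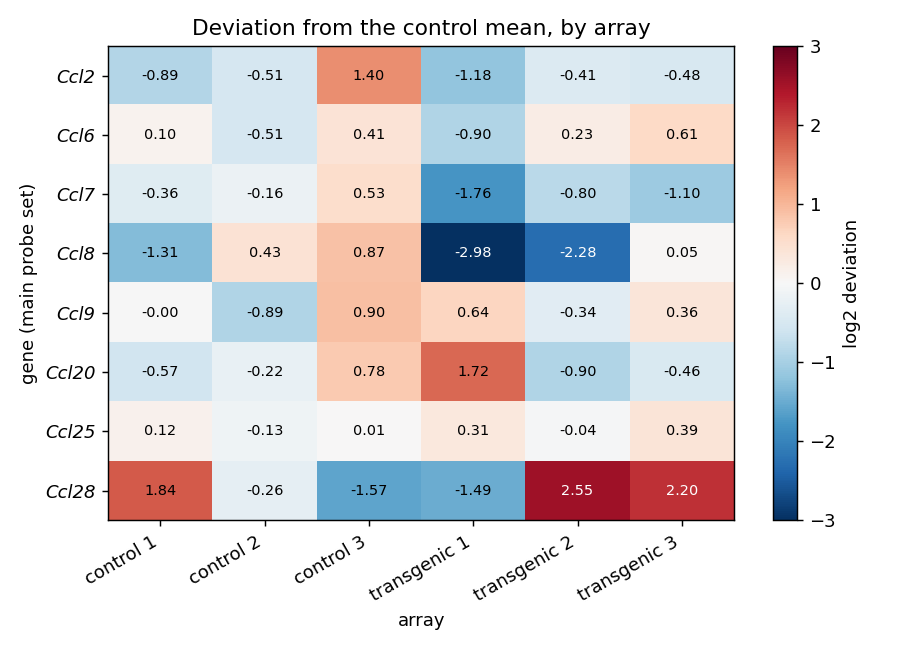
Deviation of each tested CC chemokine (rows, main probe set) from its mean over the control arrays (log2; red above, blue below) on each of the 6 arrays (columns). Ccl8 is at -2.98 and -2.28 on transgenic arrays 1 and 2, and Ccl28 at 2.55 and 2.20 on transgenic arrays 2 and 3 but at -1.49 on array 1.

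The epithelial members Ccl28, Ccl20 and Ccl25 had within-group ranges wider than the difference of the group means, as did Ccl2, Ccl6, Ccl8 and Ccl9. Ccl28, a mucosal chemokine that attracts antibody-secreting cells through Ccr10, was at 9.22, 7.12 and 5.81 on the control arrays and at 5.89, 9.93 and 9.58 on the transgenic arrays. A low array and high arrays occurred in each group. The control arrays spanned 10.6-fold and the transgenic arrays 16.4-fold. The difference of the means was 1.09 ± 1.30 (SE), with a 95% interval of -2.07 to 4.24 (limma adjusted p 0.863). Leaving out an array with low Ccl28 or high Ccl28 moved it, to 2.37 when transgenic array 1 was dropped, 2.00 for control array 1, 0.53 for transgenic array 3, 0.35 for transgenic array 2 and 0.30 for control array 3. The other 2 Ccl28 probe sets were at 4.72 or less on every array and were not tested.

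Goblet cell markers varied alongside Ccl28. The summed level of 7 such genes, all tested, was 15.51, 14.05 and 14.43 on the control arrays and 13.31, 15.84 and 15.96 on the transgenic arrays. The 3 arrays with the highest Ccl28 were also the 3 with the highest goblet cell level, and the part of goblet cells in the Ccl28 values was not tested. Of 6 B and plasma cell markers, chosen for naming here after their values were seen, 3 were tested. All 3 were higher on average in transgenic tumours, where 53.2% of all probe sets tested were lower, and only Ighm passed. Cd79a, Cd79b and Ms4a1 were near background and not tested, with Cd79a and Ms4a1 slightly lower on average and Cd79b higher. Ighm, the immunoglobulin M heavy chain, was at 3.36, 4.25 and 4.35 on the control arrays and at 11.64, 9.93 and 9.73 on the transgenic arrays. It passed (limma adjusted p 0.0316), as did 0.0570% of all probe sets tested. Its control array 1 was under 4, so Ighm met the filter only with the help of its transgenic arrays. Mzb1, a plasma cell chaperone, was at 6.96, 7.02 and 5.28 and at 6.76, 6.48 and 8.05. Jchain, which encodes the joining chain of secreted antibody, was at 12.53, 12.18 and 11.15 on the control arrays and at 12.24, 11.91 and 12.47 on the transgenic arrays. The groups overlapped for Mzb1 and for Jchain, and neither gene passed (limma adjusted p 0.828 and 0.892).

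Ccl20, the ligand of Ccr6 that epithelium makes on inflammatory stimuli, was at 4.26, 4.61 and 5.61 on the control arrays and at 6.54, 3.93 and 4.36 on the transgenic arrays. Transgenic array 1 was the highest and array 2 the lowest of all 6. The difference was 0.12 ± 0.73 (SE), with a 95% interval of -1.65 to 1.89 (limma adjusted p 0.976). Without transgenic array 1 it was -0.68, and without transgenic array 2, the one with squamous genes, 0.63.

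Ccl25, the ligand of Ccr9 that marks small intestinal epithelium, ranged least among the 8 tested members. It was at 4.99, 4.74 and 4.88 on the control arrays and at 5.18, 4.83 and 5.26 on the transgenic arrays, a difference of 0.22 ± 0.17 (SE), with a 95% interval of -0.20 to 0.64 (limma adjusted p 0.810). Transgenic arrays 1 and 3 were above all controls and array 2 was within them. Its other probe set stayed between 2.89 and 3.69. Of 7 small intestine markers, Apoa1, Apoa4, Apoc3, Lct, Rbp2 and Alpi were under 4 on every array, and Fabp6 was at 5.30 on transgenic array 2, at 4.06 on transgenic array 3 and under 4 on the rest.

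**Figure D4:**
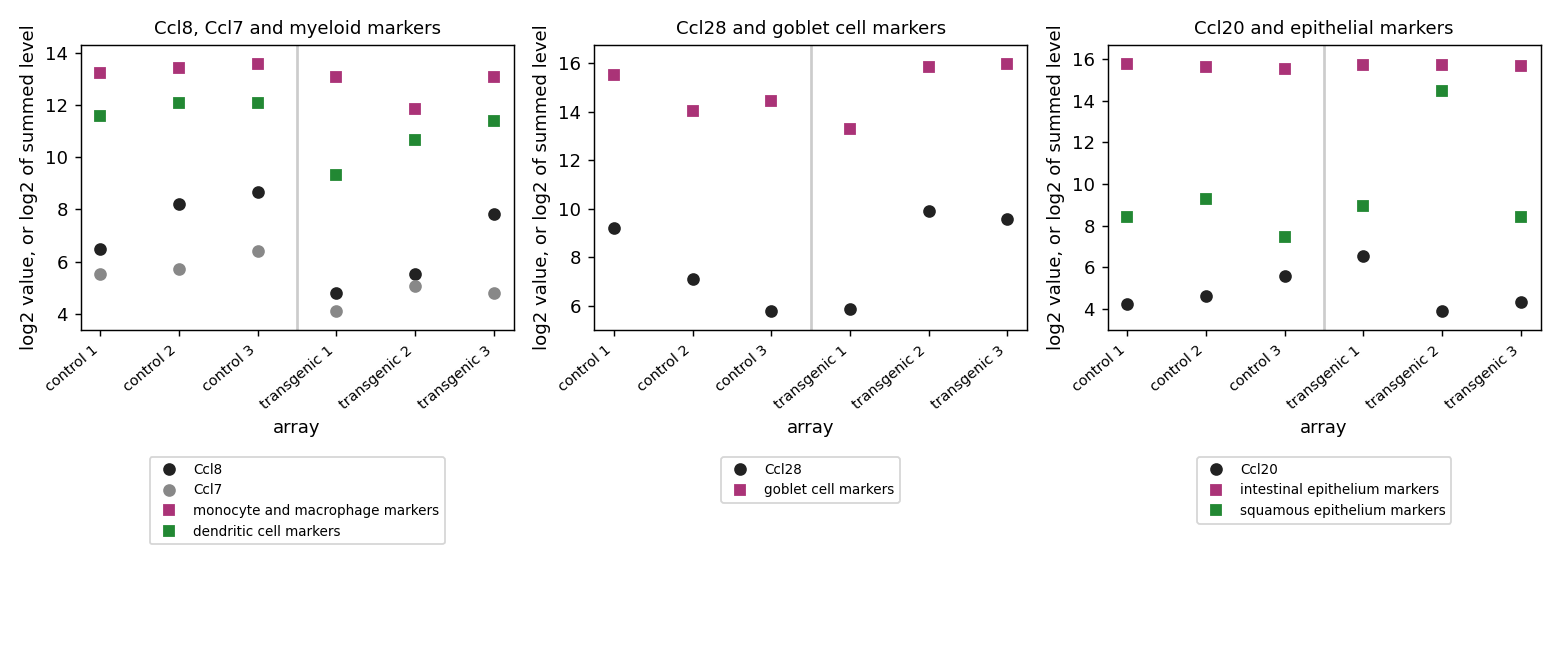
Log2 values of Ccl8 and Ccl7 (left), Ccl28 (middle) and Ccl20 (right) on each array (x axis, controls left of the grey line), as circles, with the log2 summed level of marker lists as squares. The goblet cell level and Ccl28 are both high on control array 1 and transgenic arrays 2 and 3, and squamous markers reach 14.44 on transgenic array 2.

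Most of the members ranged widely between tumours. From the lowest to the highest array Ccl28 spanned 4.12 (17.4-fold), Ccl8 3.86 (14.5-fold), Ccl20 2.62, Ccl2 2.58, Ccl7 2.29, Ccl9 1.79, Ccl6 1.51 and Ccl25 0.52, where the median over all probe sets tested was 0.81. A range at least as wide was found in 1.48% of all tested probe sets for Ccl28, 1.79% for Ccl8, 5.17% for Ccl20 and 74.7% for Ccl25. On transgenic array 1 lay the lowest value of 4 of the 8 members, Ccl2, Ccl6, Ccl7 and Ccl8, and the highest of Ccl20, while 24.6% of all tested probe sets were lowest and 25.6% highest there. On control array 3 lay the highest value of 4 members, Ccl2, Ccl7, Ccl8 and Ccl9, against 20.3% of all tested. Transgenic array 1 also had the smallest 3′ minus 5′ signal of Gapdh, a control for RNA integrity, at 0.71, with the other arrays at 0.87 to 0.96. That of beta-actin was smallest there too, at 1.457 against 1.655 to 1.818, so the excess of 3′ signal was least on this array. The part of RNA quality was not tested.

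Among the members themselves, likeness was measured as the root mean square difference of log2 values over the 6 arrays, after each probe set was centred on its own mean. Ccl2 and Ccl7 were at 0.52, Ccl9 and Ccl25 also at 0.52, Ccl6 and Ccl9 at 0.72, Ccl7 and Ccl8 at 1.00, and Ccl20 and Ccl28 the furthest apart at 2.56. Steady genes come out close to each other by this measure. Of all tested genes, Gpt2 (0.12) and Igf1 (0.16) had the pattern nearest to Ccl7, Asprv1 (0.21) and Slc34a2 (0.38) to Ccl8, and Minpp1 (0.20) and Dync2li1 (0.26) to Ccl2. Nearest to Ccl28 were Akr1c14 (0.32) and Sult1d1 (0.39), to Ccl20 Cp (0.18) and Cxadr (0.22), to Ccl6 Caap1 (0.15) and B230307C23Rik (0.16), to Ccl9 Rgs16 (0.18) and Kcnj8 (0.21), and to Ccl25 Coq5 (0.06) and Eps8l2 (0.06). With 6 arrays and so many genes close patterns are common, and these names describe the arrays only. Akr1c14, an aldo-keto reductase gene, was at 7.16, 5.59 and 4.12 on the control arrays and at 3.75, 8.74 and 7.69 on the transgenic arrays. Igf1, a growth factor gene, was at 10.13, 10.12 and 10.64 and at 8.67, 9.62 and 9.51.

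Other CC ligands were mostly low. Of 14 listed, 8 had a probe set of their own and 2 were tested, Ccl12 and Ccl27a, and neither passed. Ccl27a, a skin-associated ligand of Ccr10, differed by -0.96 ± 0.43 (SE; limma adjusted p 0.806), at a probe set whose name marks possible cross-hybridisation, so that its value is uncertain among near-identical copies. Ccl1, Ccl17, Ccl22 and Ccl24 were under 4 on every array, Ccl5 reached at most 4.05 and Ccl11, which draws eosinophils, at most 4.43. All 5 eosinophil markers with a probe set were under 4 on every array.

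The receptors were low as well. Of 14 CC and atypical receptors with a probe set, 10 were under 4 on every array, among them Ccr2 (at most 3.75), Ccr6 (3.19 or less), Ccr9 (3.20 or less), Ccr8 and Ccr10. The 2 tested were Ccr1, described above, and Ackr4, a scavenger of Ccl19, Ccl21 and Ccl25. Ackr4 was at 3.99, 3.97 and 4.12 on the control arrays and at 4.49, 5.09 and 4.22 on the transgenic arrays. Its groups did not overlap, where 4.61% of all tested probe sets lay wholly above, and it did not pass (limma adjusted p 0.806). Of its control arrays only array 3 reached 4, so Ackr4 was tested only through its transgenic arrays. The gap between its groups is therefore partly set by the filter, and no difference is given. Among T cell markers, 0 of 7 were tested, with a summed level of 6.09 to 6.25 in control and 5.62 to 6.00 in transgenic tumours, and Cd3e, Cd3g, Cd4, Cd2 and Cd5 were under 4 on every array.

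Genes that carry the receptor signal also did not pass. Of 13 tested, 4 were higher and 9 lower, where 53.2% of all probe sets tested were lower, with a median difference of -0.08. Grk5, a kinase that desensitises G protein-coupled receptors, was at 6.56, 6.77 and 6.88 on the control arrays and at 6.00, 5.75 and 6.24 on the transgenic arrays. All its transgenic arrays lay below the controls, as in 6.31% of all probe sets tested. Its difference was -0.74 ± 0.19 (SE; limma adjusted p 0.806). The arrestin gene Arrb2 differed by -0.49 ± 0.25 (SE), and the G protein regulators Rgs1 and Rgs2 by 0.84 ± 0.60 and -0.44 ± 0.33 (SE), at limma adjusted p of 0.806 to 0.810.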

How the data were processed

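The submitters' processing notes name GCRMA, a background correction and summary of Affymetrix probes, as the tool with which the authors made the deposited log2 expression values, with no version in the sources used here. That the scale is log2 follows from their range (array medians 3.31 to 3.36). Probe sets were named from the platform annotation, and RefSeq GRCm38.p6 was used for names, neighbours and promoters.

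Probe sets at 4 or more on at least 3 of 6 arrays were kept, without 64 control probe sets. The 19310 left were fitted by lmFit and eBayes of limma 3.58.1 (R 4.3.3), with genotype as the only term, and p-values were adjusted over all of them by Benjamini-Hochberg, a procedure tested on simulated data. The main probe set of a gene was the one with the highest mean over the arrays. From the lists of other CC ligands, receptors and signalling genes up to 4 tested members of smallest p were named, and for each tested member the 2 genes of nearest pattern. Marker genes named singly were chosen after their values were seen. Members and lists were chosen with earlier results of these data known. Precision is limited by having 3 arrays a group. Alternatives changed the filter, normalization, prior variance, array weights, replicate block, a floor at 4, the arrays used and the probe set. Leaving out X and Y genes was added after seeing the data.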

Additional observations from a re-analysis of the deposited data

How the results depend on the processing

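No CC chemokine probe set passed in any setting run (0 in each), and the limma adjusted p of the 8 main probe sets and the 2 other tested ones ran from 0.335 to 0.999. Over all probe sets 11 passed, 8 to 11 with 1 array left out and 3 without genes of the X and Y chromosomes, a setting chosen after seeing the data that tests fewer genes. Replicate numbers showed no pairing of the arrays over all tested probe sets, which cannot exclude one. Deviations of same-numbered arrays correlated at -0.267, -0.277 and -0.051, and no array correlated best with its own number. With the number as a replicate block 8 probe sets passed and again 0 of the CC chemokines. The block narrowed the SE of Ccl8 from 0.91 to 0.41, and also that of Ccl2, Ccl6, Ccl7 and Ccl9. It widened that of Ccl20, Ccl25 and Ccl28. Ccl7, Ccl8, Ccl25 and Ccl28 kept their sign in every setting that tested them. With 1 array left out, Ccl7 ran from -1.43 to -0.95, Ccl8 from -2.63 to -1.12, Ccl25 from 0.14 to 0.35 and Ccl28 from 0.30 to 2.37. Signs turned for Ccl2 (-1.13 to 0.013 with 1 array left out), Ccl6 (-0.34 to 0.42), Ccl9 (-0.23 to 0.67) and Ccl20 (-0.68 to 0.63). With array quality weights Ccl6 was at 0.50, Ccl20 at -0.099, Ccl8 at -0.77, Ccl2 at -0.27, Ccl9 at 0.58 and Ccl28 at 1.61, none past the threshold, and the other Ccl6 probe set gave 0.28; the cause was not tested. The filter at 6 left Ccl6, Ccl8, Ccl9 and Ccl28. Signal limits Ccl2 and Ccl20, which lay under 4 on 2 and 1 of the 6 arrays.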

Other observations

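Transgenic array 1, the array with the highest Ccl20 and the lowest Ccl7 and Ccl8, also held the extreme values of Dpp4, Rgs1 and Ngp. These genes were picked after their values were seen. Over all tested probe sets, 29.1% were lowest and 22.7% highest on transgenic array 2, and 24.6% and 25.6% on transgenic array 1. Dpp4, a membrane peptidase that trims chemokines, was at 4.65 there, at 6.60 to 6.84 on the control arrays and at 7.31 and 8.01 on transgenic arrays 2 and 3. Rgs1, a regulator of G protein signalling in leukocytes, reached 6.16 there and no more than 4.12 elsewhere. Ngp, a neutrophil granule protein gene that was not tested, was at 5.78 there and at 4.06 or less elsewhere. S100a8, S100a9 and Ltf, also of the neutrophil list, were highest on transgenic array 2, the one with squamous genes. They were at 11.72, 11.81 and 10.27 on that array, against 11.56, 11.39 and 7.64 on array 1.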
